A study of Mus musculus with 4 samples.

Results

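Expression of 10 RNA-binding and splicing regulators, each neuronal or paired with a neuronal paralog, was examined in mouse embryonic stem cells (ESCs) with and without the transcriptional repressor REST. The genes were *Elavl1*, *Elavl2*, *Elavl3*, *Elavl4*, *Nova1*, *Nova2*, *Ptbp1*, *Ptbp2*, *Srrm4* and *Celf4*, chosen by name from a table of 26301 genes. In that table, 8 of them were found by symbol, with *Celf4* written as Brunol4. *Elavl3* carried no symbol and *Srrm4* an older clone name, and these 2 were found by their Entrez gene identifiers, 15571 and 68955.

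RNA-seq compared the N6 ESC line, which is WT, with the N8 ESC line, which is REST-/-, in 2 biological replicates each. Both lines were kept in serum and Leukemia Inhibitory Factor, first on irradiated embryonic fibroblasts and then on gelatin to remove those feeder cells before RNA was taken. Each genotype was represented by a single line, so the effect of genotype and other differences between the lines cannot be told apart. The labels call the libraries biological replicates without saying how the cultures were separated, so the p-values measure the spread between these libraries.

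REST silences neuronal genes in non-neuronal cells by binding a DNA element called RE1 and recruiting corepressors. Several of the proteins studied here act in the neuronal RNA program that lies beyond transcription. The neuronal Elavl (Hu) proteins bind AU-rich and U-rich RNA and promote stability, translation and neuron-type splicing, whereas Elavl1 is found in most cell types. Nova1 and Nova2 bind short pyrimidine-rich elements around neuronal exons. Ptbp1 blocks many neuronal exons in non-neuronal cells and represses its neuronal paralog Ptbp2, and Srrm4 promotes inclusion of neuronal microexons, including an exon of *Rest* itself that weakens the repressor. Celf4 binds the mRNAs of many synaptic proteins.

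*Elavl3* had the largest difference of the 10 genes, at 3.18-fold more RNA in REST-/- than in WT ESCs. *Srrm4* was 2.06-fold and *Celf4* 1.67-fold higher, again with both REST-/- libraries above both WT libraries. *Ptbp1*, *Nova1* and *Nova2* lay within 1.08-fold of their WT level. All 10 genes passed the filter on low counts. None of them passed an adjusted p of 0.05 in edgeR's quasi-likelihood test over 15444 genes, where 0.0518% of the genes were called higher and 0.00648% lower. This fit held no term for the replicate number, and the differing calls with such a term are given at the end. At an unadjusted p under 0.05 in the same test, *Elavl3* and *Srrm4* were higher and no member was lower, against 3.85% and 2.86% of all tested genes. Of all tested genes, 3.53% were more than 2-fold higher, as *Elavl3* and *Srrm4* were. The median log2 fold change of the 10 genes was 0.16, beside -0.0047 for all tested genes. In these bulk samples, more cells expressing a gene and more RNA per cell cannot be told apart.

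**Figure D1:**
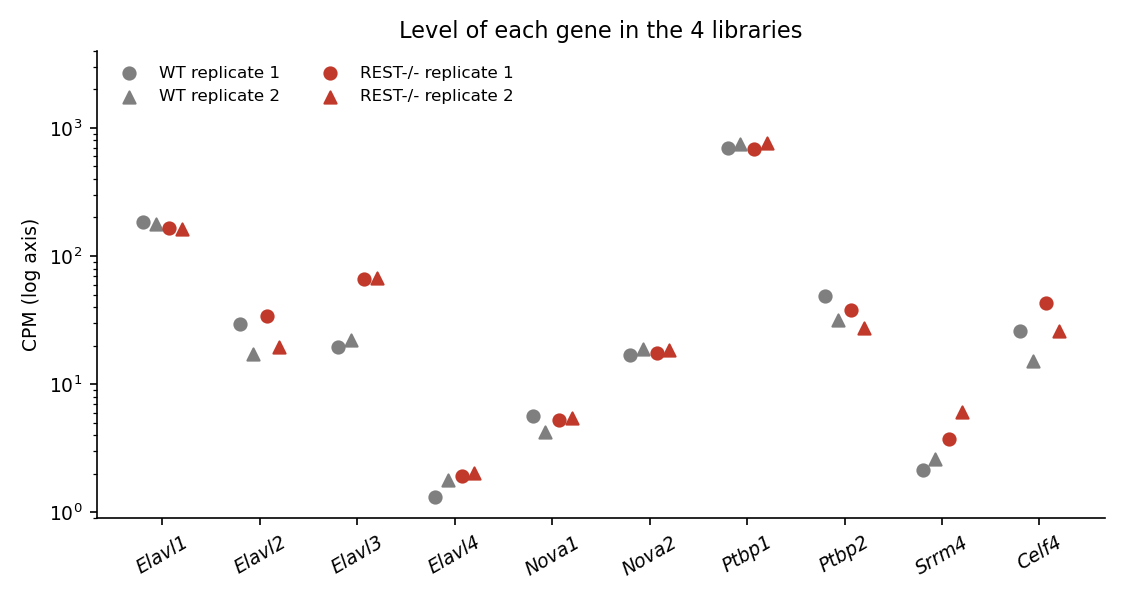
Level of each of the 10 genes in each library, in CPM (counts relative to a library of 1e6 counts) on a log axis, with WT in grey, REST-/- in red, circles for replicate 1 and triangles for replicate 2. The 2 red points of *Elavl3*, at 66.0 and 67.2 CPM, lie well above its grey points at 19.7 and 22.3 CPM, whereas the points of *Ptbp1* and *Nova2* overlap.

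The libraries held 22293966 to 30953863 counts on genes, and counts were expressed as CPM after scaling the library sizes with edgeR's TMM method. *Rest* itself had 7908 and 6233 counts in WT, against 4244 and 3890 in REST-/- ESCs (log2 fold change -0.52, SE 0.13, adjusted p = 0.526, edgeR's quasi-likelihood test). Counts are summed over the gene, so whether exons are missing cannot be read from them. Differences between replicates 1 and 2 were shared by the genotypes, with a Pearson r of 0.81 across 15444 genes that are not independent, and were larger (median 0.32 in WT and 0.28 in REST-/-, on the log2 scale) than the typical difference between genotypes (median 0.18). All 10 pluripotency markers were detected, with summed levels of 4252 to 5083 CPM that were lower in both REST-/- libraries. The summed levels of 10 neuron markers, carried mostly by *Tubb3* and *Stmn2*, overlapped between the genotypes (429 and 517 CPM in WT, 491 and 542 in REST-/-), while 3 of the 9 that could be tested were more than 2-fold higher in REST-/- ESCs. These were *Snap25* (13 and 18 counts in WT, against 251 and 166), *Nefm* (185 and 96, against 816 and 318) and *Nefl* (811 and 821, against 1988 and 1384). *Mapt* was lower in both REST-/- libraries (1127 and 964 counts, against 705 and 543), and *Stmn2* and *Gap43* had log2 fold changes of -0.18 and -0.11. Those of 10 fibroblast markers were 49.5 and 39.2 CPM in WT and 165 and 40.1 in REST-/-, with *Lum* at 3 counts or fewer throughout, and those of 10 primitive endoderm markers were 258 and 429 CPM in WT and 521 and 629 in REST-/-. Neural progenitor markers summed to 82.5 and 167 CPM in WT and 154 and 166 in REST-/-. No gene of these 5 lists passed an adjusted p of 0.05 in edgeR's quasi-likelihood test, in which 7 of the 43 that could be tested were higher and 6 lower at an unadjusted p under 0.05, beside 3.85% and 2.86% of all tested genes. In both DESeq2 and edgeR's exact test with tag-wise dispersion, *Snap25*, *Nefm*, *Nefl* and the endoderm marker *Pdgfra* were called higher, and the pluripotency markers *Zfp42* and *Fgf4* and the progenitor marker *Olig2* (158 and 172 counts in WT, against 1 and 0) lower. *Gata6* was called higher in the exact test alone. The part of other cell types in the results below was not tested.

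Because REST acts through RE1, the mm9 genome was searched on both strands for the 15-base core CAGNACCNNGGACAG, in which N is any base and 12 positions are fixed. There were 1304 matches without a mismatch and 20339 with at most 1. A match is given by its distance from the nearest annotated transcription start of a gene, negative when it lies upstream. It is a description of the sequence and not evidence that REST binds there. Nor does the lack of a match show that REST is absent, because the paper also reports bound regions with only part of the motif.

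Among the Elavl genes, *Elavl3*, which encodes the neuronal protein HuC, was the one with separated genotypes and a large difference. *Elavl3* lies on the minus strand of chromosome 9 (mm9, chr9:21819449-21856467). It had 609 and 596 counts in WT, against 1706 and 1488 in REST-/- ESCs. These counts equal 19.7 and 22.3 CPM in WT, and a mean of 66.6 ± 0.81 CPM (SD, n = 2) in REST-/- ESCs. Both REST-/- values were about 3 times the WT values and the libraries within each genotype lay close together. The log2 fold change was 1.67 (SE 0.16, 95% interval 1.25 to 2.09). In edgeR's quasi-likelihood test its p was 0.000235 before and 0.109 after Benjamini-Hochberg adjustment. By p-value, *Elavl3* ranked number 30 of the 15444 tested genes. With edgeR's exact test and tag-wise dispersion, *Elavl3* was the single member called (adjusted p = 1.74e-05), when 1.16% of genes were called higher and 0.35% lower. With DESeq2 it was again the single member called (adjusted p = 3.03e-08), beside 1.17% higher and 0.376% lower of all genes.

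The nearest RE1 match to *Elavl3* lay 1856 bases upstream of its start, outside the gene, and departed from the motif at 1 base. *Elavl2* (HuB) also had a match with 1 mismatch close by, in an intron 1290 bases downstream of a start. Both are shown because they are the closest matches of the neuronal Elavl genes, with the 15 motif bases in capitals. Substitutions are given as motif base, position from 1 at the 5′ end of the motif, and genomic base, which were G10A for *Elavl3* (motif at chr9:21858316-21858330, plus strand) and C1T for *Elavl2* (chr4:91041765-91041779, plus strand).
Elavl3: aaggcttCAGCACCACAGACAGcggtctg
Elavl2: cgctgcgTAGGACCAAGGACAGggcttgg

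The other Elavl genes differed less. *Elavl2* had 908 and 460 counts in WT, against 881 and 436 in REST-/- ESCs, a log2 fold change of 0.21 (SE 0.40). Here replicate 1 was well above replicate 2 in both genotypes and the genotypes overlapped. *Elavl4* (HuD) was scarce, with 41 and 48 counts in WT, against 50 and 45 in REST-/- ESCs. In CPM the *Elavl4* libraries did not overlap (1.32 and 1.79 against 1.94 and 2.03), yet the log2 fold change of 0.35 had a 95% interval of -0.59 to 1.29. *Elavl1* (HuR), the broadly expressed member, had 5744 and 4757 counts in WT, against 4254 and 3604 in REST-/- ESCs. Its CPM values were lower in both REST-/- libraries (165 and 163) than in both WT libraries (186 and 178). The *Elavl1* difference was small, at a log2 fold change of -0.15 (SE 0.12).

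Per length of exon, the makeup of the Elavl family differed between the genotypes. Measured as CPM per kb of merged exon, *Elavl3* made up 9.71% and 11.8% of the summed Elavl level in the WT libraries, against 27.9% and 30.1% in REST-/- ESCs. *Elavl1* made up 76.3% and 78.8% in WT and 58.0% and 60.9% in REST-/- ESCs, and remained the most abundant Elavl gene. *Elavl4* stayed under 1% of the sum in every library. The ratio of *Elavl2*, *Elavl3* and *Elavl4* together to *Elavl1* was -1.87 and -2.09 on the log2 scale in WT and -0.69 and -0.87 in REST-/- ESCs. The mean difference was 1.21, with p = 0.333 in a two-sided exact permutation test over the 4 libraries. This is the smallest p that 2 against 2 libraries allow, so this test cannot reach 0.05 for a single ratio.

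**Figure D2:**
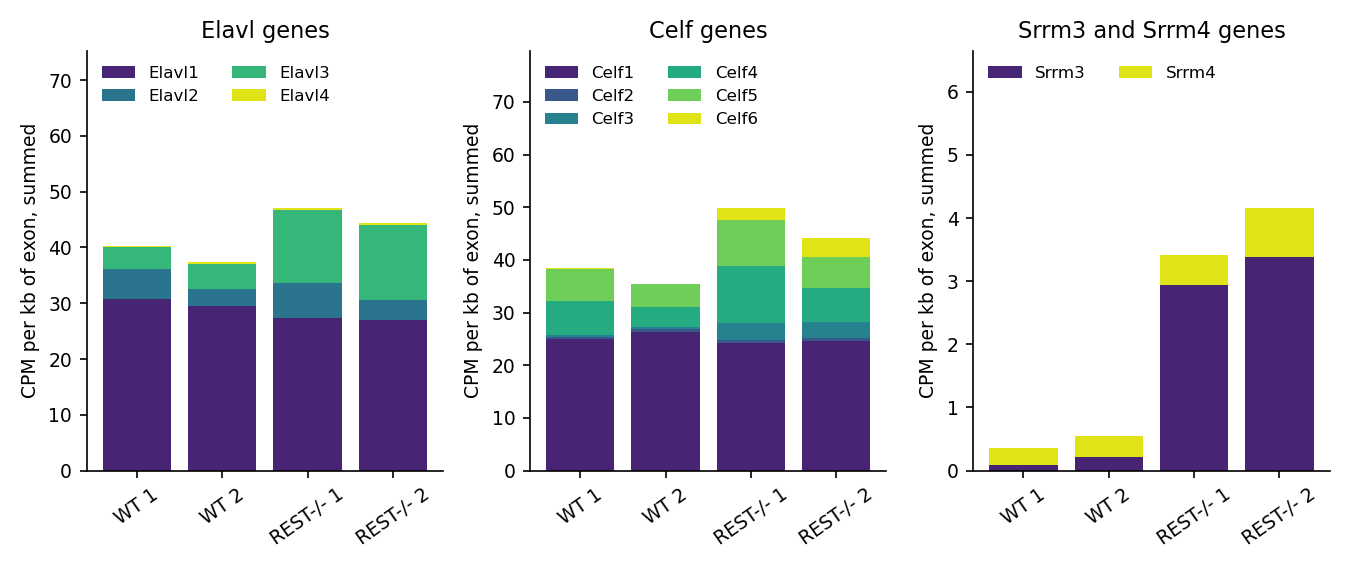
Stacked levels of the Elavl genes, the Celf genes, and *Srrm3* with *Srrm4* in each library, in CPM per kb of merged exon. The *Elavl3* segment is 3.91 and 4.43 high in the WT libraries, against 13.1 and 13.4 in REST-/- ESCs, and the *Srrm3* segment is at most 0.21 in WT and 2.94 or more in REST-/-.

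*Srrm4*, which encodes the microexon regulator nSR100, had low counts in both genotypes. There were 66 and 70 counts in WT, against 97 and 134 in REST-/- ESCs, or 2.37 ± 0.34 CPM (SD, n = 2) and 4.90 ± 1.62 CPM (SD, n = 2). The genotypes did not overlap, but the REST-/- libraries differed from each other by more than the lower one differed from WT. The log2 fold change was 1.04 (SE 0.38, 95% interval 0.042 to 2.05). In edgeR's quasi-likelihood test its p was 0.044 before and 0.733 after adjustment. The log2 fold change lay between 0.66 and 1.35 with each library left out in turn. The annotation places 68 of the 7896 exon bases of *Srrm4* on a transcript of the opposite strand. The library kit does not record strand, so reads on those bases cannot be assigned to either gene.

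*Srrm3*, a paralog of *Srrm4* that also promotes microexon inclusion, was the related gene with the highest log2 fold change. *Srrm3* had 16 and 36 counts in WT, against 486 and 481 in REST-/- ESCs. This was 21.9-fold more RNA (95% interval 8.25 to 58.0), which became 38.9-fold without WT replicate 2 and 15.0-fold without WT replicate 1. It equals a log2 fold change of 4.45 (SE 0.53) with an adjusted p of 0.135 in the quasi-likelihood test of edgeR and 2.39e-16 in DESeq2. Per kb of exon, *Srrm4* made up 77.0% and 61.2% of the level of *Srrm3* and *Srrm4* together in WT, and 13.9% and 18.4% in REST-/- ESCs. The RE1 matches of both genes had 1 mismatch and are shown to set the pair side by side. That of *Srrm4* lay 311 bases downstream of its start in a non-coding part of an exon (chr5:117041508-117041522, minus strand, C7T), and that of *Srrm3* lay in an intron, 10800 bases upstream of the nearest start (chr5:136319477-136319491, minus strand, C13T).
Srrm4: cacgtttCAGCACTTCGGACAGcgcccca
Srrm3: ttgatttCAGCACCACGGATAGctgccgg

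Of the Celf paralogs, *Celf3* and *Celf6*, which encode splicing regulators best known from brain, had the largest differences. *Celf6* had 20 and 12 counts in WT, against 210 and 281 in REST-/- ESCs, a log2 fold change of 4.23 (SE 0.43, adjusted p = 0.109, edgeR's quasi-likelihood test). *Celf3* had 31 and 22 counts in WT, against 231 and 183 in REST-/- ESCs, a log2 fold change of 3.23 (SE 0.31, adjusted p = 0.109). For both genes every REST-/- library held over 5 times the counts of any WT library. Both had an RE1 match without a mismatch within 1 kb of a start, as 0.7158% of the 14529 tested genes with an annotated position did. That of *Celf6* lay 107 bases downstream in a coding exon (chr9:59426244-59426258, plus strand), and that of *Celf3* 810 bases upstream (chr3:94281936-94281950, plus strand). They are shown as the closest matches of the related genes that hold the full motif.
Celf6: tggctttCAGCACCGCGGACAGcggcggc
Celf3: cctcttcCAGCACCGGGGACAGctccaac

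*Celf4* was expressed in WT ESCs well above *Celf3* and *Celf6*, at 5.17 CPM per kb against 0.33 and 0.15. It had 805 and 410 counts in WT, against 1107 and 578 in REST-/- ESCs. In CPM this was 26.0 and 15.3 in WT and 42.8 and 26.1 in REST-/-, so that the lower REST-/- library lay just above the higher WT library. The log2 fold change was 0.74 (SE 0.38, 95% interval -0.28 to 1.75) and its adjusted p in the quasi-likelihood test of edgeR was 0.925. Compared within a replicate number, *Celf4* was higher by 0.71 and 0.75 on the log2 scale. Its share of the summed Celf level per kb was 16.9% and 10.8% in WT and 21.5% and 14.8% in REST-/- ESCs, ranges that overlap. *Celf1*, the broadly expressed member, made up the largest share in every library, at 64.9% and 74.3% in WT and 48.5% and 55.6% in REST-/-. No match to the RE1 core, with or without 1 mismatch, lay within 20 kb of a *Celf4* start, and the nearest full match was in an intron 76325 bases away. From chromatin immunoprecipitation, however, the paper lists *Celf4* among genes near REST-bound regions in ESCs. The lack of a match here is therefore not a lack of REST binding nearby.

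The Nova genes did not separate the genotypes. *Nova1* had 175 and 114 counts in WT, against 137 and 120 in REST-/- ESCs, with a fold change of 1.08 (95% interval 0.63 to 1.85). *Nova2* had 521 and 505 counts in WT, against 451 and 410 in REST-/- ESCs, with a fold change of 1.01 (95% interval 0.70 to 1.45). Per kb of exon, *Nova2* made up 69.8% and 77.5% of the Nova level in WT and 71.9% and 72.6% in REST-/- ESCs. The log2 ratio of *Nova2* to *Nova1* was 1.49 and 2.02 in WT and 1.63 and 1.68 in REST-/- ESCs, a mean difference of -0.10 that turned to 0.16 without WT replicate 2. *Nova2* shares 2652 of its 9014 exon bases with a long non-coding RNA of the opposite strand, so its counts may include reads of that RNA. *Nova1* had an RE1 match with 1 mismatch in an intron 2181 bases downstream of a start, while the nearest match of *Nova2*, which held the full motif, lay 25718 bases away.

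*Ptbp1*, the repressor of neuronal exons in non-neuronal cells, was the most abundant of the 10 genes and differed little. It had 21658 and 20199 counts in WT, against 17698 and 16920 in REST-/- ESCs, or 727 ± 38.6 and 724 ± 55.8 CPM (SD, n = 2 each). The fold change was 0.997 with a 95% interval of 0.79 to 1.26. A copy of its whole 1668-base coding sequence lies on chromosome 13 at 95.3% identity, and 773 of its 4748 exon bases overlap other annotated genes, so part of these counts could belong elsewhere. *Ptbp2*, its neuronal paralog, had 1510 and 851 counts in WT, against 981 and 609 in REST-/- ESCs. The WT range of 31.8 to 48.8 CPM overlapped the REST-/- range of 27.5 to 38.0 CPM, and the log2 fold change was -0.30 (SE 0.30, 95% interval -1.08 to 0.49). The log2 ratio of *Ptbp2* to *Ptbp1* was -3.83 and -4.55 in WT and -4.16 and -4.77 in REST-/- ESCs. The mean difference was -0.28 (p = 0.667, two-sided exact permutation test). Compared within a replicate number the ratio differed by -0.33 and -0.22 (REST-/- minus WT), but the mean difference turned to 0.084 without WT replicate 1 and 0.033 without REST-/- replicate 2. Per kb of exon, *Ptbp1* made up 84.6% to 89.9% of the level of *Ptbp1*, *Ptbp2* and *Ptbp3* in every library.

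**Figure D3:**
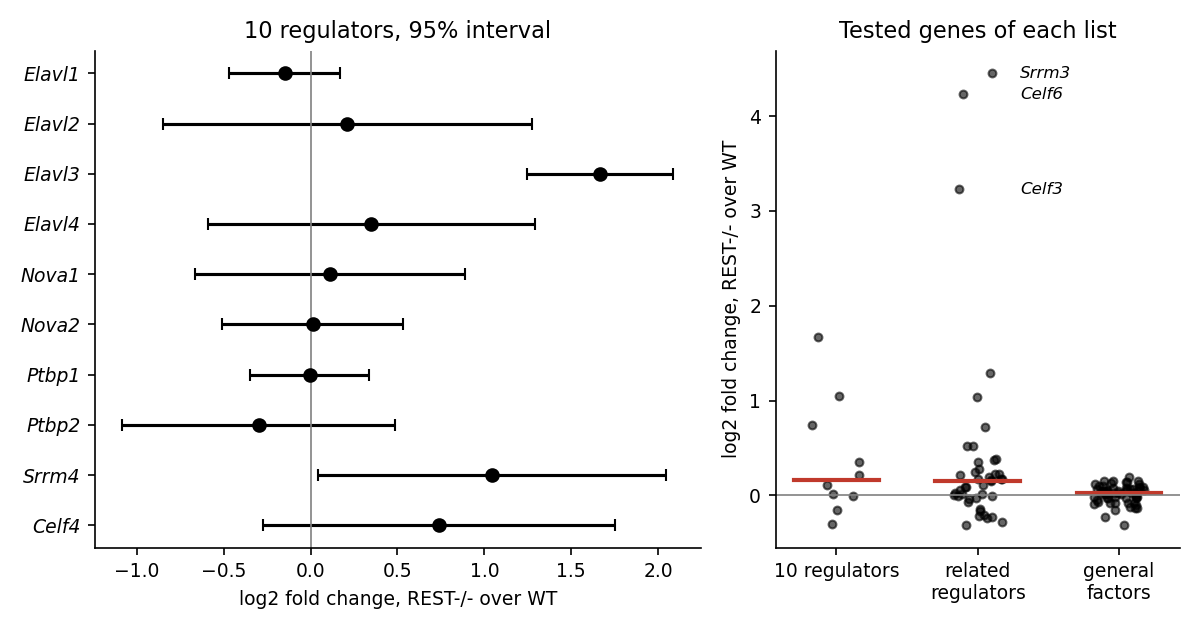
Log2 fold change of REST-/- over WT, with 95% intervals for the 10 genes on the left and all tested genes of 3 lists on the right, where the red line is the median. The interval of *Elavl3* (1.25 to 2.09) and that of *Srrm4* (0.042 to 2.05) lie above 0 before adjustment, and *Srrm3*, *Celf6* and *Celf3* stand above the other related genes.

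Ordered by level per kb of exon, the WT means ran from *Ptbp1* (153 CPM per kb) through *Elavl1* (30.1), *Ptbp2* (9.44 and 14.5 in the 2 libraries), *Celf4* (5.17), *Elavl2* (4.26), *Elavl3* (4.17), *Nova2* (1.98), *Nova1* (0.71) and *Srrm4* (0.30) to *Elavl4* (0.29). The libraries of *Celf4*, *Elavl2* and *Elavl3* overlapped in WT, as did those of *Srrm4* and *Elavl4*, so their order there is not resolved. In REST-/- ESCs *Elavl3* followed *Ptbp1* and *Elavl1*, at 13.2 ± 0.16 CPM per kb (SD, n = 2). There it lay above both libraries of *Ptbp2* (11.3 and 8.17), which stood above both *Elavl3* libraries in WT.

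How far the libraries of a genotype lay apart also differed among the genes. *Elavl2*, *Celf4* and *Ptbp2* were higher in replicate 1 than in replicate 2 in both genotypes, by 0.76, 0.75 and 0.61 on the log2 scale in WT and by 0.78, 0.70 and 0.46 in REST-/- ESCs. For *Elavl2* and *Celf4*, these differences stood at about the 90th percentile of all tested genes. *Elavl3* departed by -0.17 in WT and -0.025 in REST-/- ESCs, and *Elavl1* by 0.063 and 0.017. The standard errors of *Elavl2* and *Celf4*, at 0.40 and 0.38, were more than 2 times that of *Elavl3*. In all, both REST-/- libraries lay above both WT libraries for 4 of the 10 genes (*Elavl3*, *Elavl4*, *Srrm4* and *Celf4*) and below them for 1 (*Elavl1*), beside 16.5% and 15.4% of all tested genes.

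**Figure D4:**
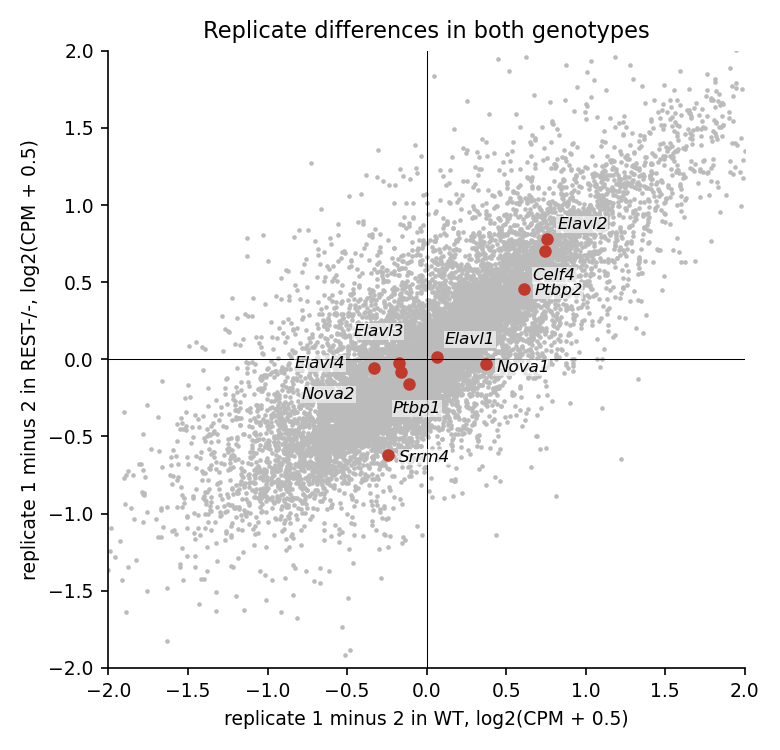
Replicate 1 minus replicate 2 in WT (horizontal) and in REST-/- ESCs (vertical), as differences of log2(CPM + 0.5), with all tested genes in grey and the 10 regulators in red. *Elavl2*, *Celf4* and *Ptbp2* lie at the upper right, and *Elavl3*, *Elavl1* and *Nova2* near the centre. 99 of 15444 genes fall outside the axes.

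Among 46 related splicing and RNA-binding regulators, the genes with large differences all lay on the higher side. In this list 43 genes could be tested, and none passed the adjusted threshold in edgeR's quasi-likelihood test, while 4 did so at an unadjusted p under 0.05, all of them higher, beside 3.85% of all tested genes higher and 2.86% lower. *Srrm3*, *Celf3* and *Celf6* passed in both DESeq2 and edgeR's exact test with tag-wise dispersion, and the 40 others in neither. Of all tested genes, DESeq2 called 1.17% higher and 0.376% lower, and this exact test 1.16% and 0.35%. The list's median log2 fold change was 0.15, and 5 genes were more than 2-fold higher and none more than 2-fold lower, beside 3.53% and 2.31% of all tested genes. Besides *Srrm3*, *Celf6* and *Celf3* these were *Rbfox3*, which encodes the neuronal nuclear antigen NeuN, and *Mbnl2*, a muscleblind splicing factor. *Rbfox3* had 24 and 52 counts in WT, against 60 and 96 in REST-/- ESCs (log2 fold change 1.29, SE 0.61), and *Mbnl2* had 513 and 328 in WT and 979 and 474 in REST-/- ESCs (1.04, SE 0.36). *Rbfox3* and *Mbnl2* lie outside the rule for naming genes and were picked after their values were seen. At the other end were *Msi1* (-0.31, SE 0.52), which encodes Musashi-1, *Mbnl3* (-0.28, SE 0.26) and *Fmr1* (-0.23, SE 0.62), which encodes the fragile X protein. *Rbfox1*, *Khdrbs2* and *Rbms3* had too few counts to be tested.

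The general splicing factors, which act on most introns and served as a contrast, differed little. Of 62 such genes 61 were tested, and *Hnrnpk* was listed at 0 in every library. Their log2 fold changes ran from -0.31 to 0.20 with a median of 0.023, and none passed at an adjusted or an unadjusted p of 0.05 in edgeR's quasi-likelihood test, nor at an adjusted p of 0.05 in DESeq2 or edgeR's exact test. The highest were *Snrpe* (0.20, SE 0.26), *Prpf19* (0.15, SE 0.11) and *Sf3b4* (0.15, SE 0.14), and the lowest *Hnrnph2* (-0.31, SE 0.33), *Hnrnpa1* (-0.23, SE 0.50) and *Sf3b3* (-0.15, SE 0.19).

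The full RE1 core was not found within 20 kb of a start of any of the 10 regulators, and 4.412% of the 14529 tested genes had one, a share at which 0 of 10 does not set them apart. With 1 mismatch allowed, 7 of the 10 had a match within 20 kb, beside 44.23% of all tested genes. The closest were those of *Srrm4*, *Elavl2*, *Elavl3* and *Nova1*, printed or described above, and these 4 genes had log2 fold changes of 1.04, 0.21, 1.67 and 0.11. Such a match lay within 5 kb for 18.82% of all tested genes and within 1 kb for 6.181%. Those of *Elavl1* (7600 bases upstream), *Ptbp1* (10885 bases upstream) and *Elavl4* (16913 bases downstream) lay farther out, and these 3 genes had log2 fold changes of -0.15, -0.0049 and 0.35. *Celf4*, which the paper lists near a REST-bound region, had no match of either kind within 20 kb. Of the related regulators, 7 had the full core within 20 kb. The 6 of these that could be tested (*Celf3*, *Celf5*, *Celf6*, *Rbfox3*, *Pcbp3* and *Cpeb1*, the last 2 named for their matches and outside the rule for naming genes) all had log2 fold changes above 0, from 0.35 to 4.23 with a median of 1.01. The 4 general splicing factors with the full core ran from -0.028 to 0.13 with a median of 0.068, and the 641 tested genes of the whole table with it had a median of 0.11, with 63.5% of them above 0, beside 49.0% of the 13886 without it. The 16 tested related genes with only a match with 1 mismatch had a median of 0.16. The 21 tested related genes left over had a median of 0.020 and reached at most 0.52. They had no match of either kind within 20 kb, except that *Qk* and *Rbm4* had no annotated position and were not searched. *Srrm3*, with the highest log2 fold change, had only a match with 1 mismatch.

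**Figure D5:**
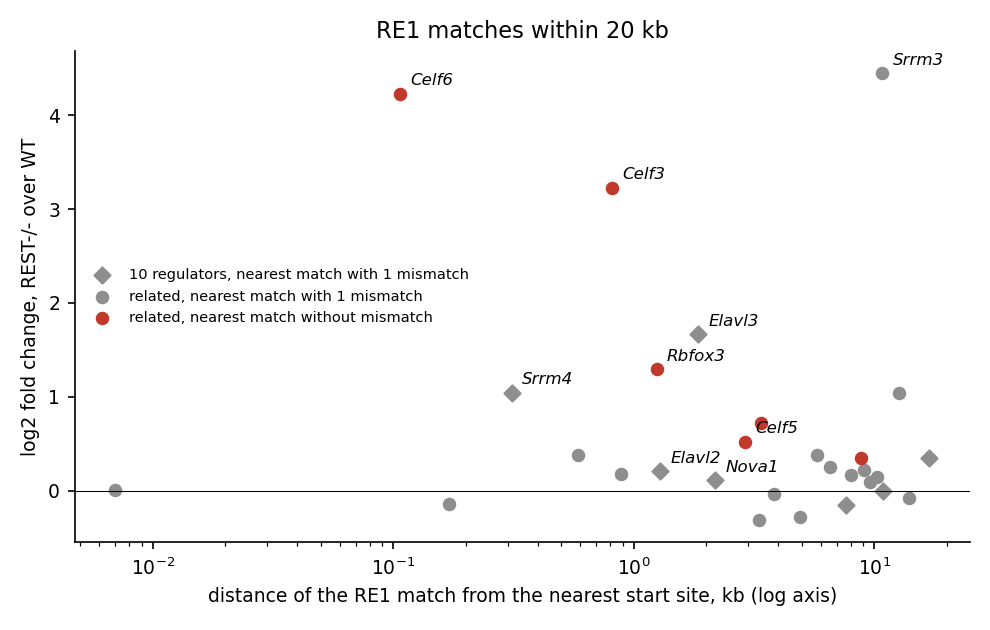
Log2 fold change of REST-/- over WT against the distance of the nearest RE1 match from a start site, in kb on a log axis, for the 10 regulators (diamonds) and the related regulators (circles). Red marks a match without a mismatch and grey one with 1 mismatch, and the 3 highest genes are *Srrm3* with a match with 1 mismatch, and *Celf6* and *Celf3* with full matches.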

How the data were processed

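The authors aligned reads with Subread and counted them per gene using featureCounts, mm9 being the build in the submitters' processing notes. Versions, annotation and strand setting are not given in the sources used here. The deposited values are raw counts per Entrez gene without normalization, and 368 rows without an identifier were left out. Counts were tested in R 4.3.3 with edgeR 4.0.16 (TMM, filterByExpr, quasi-likelihood test, prior count 0.125, Benjamini-Hochberg adjusted p under 0.05), with edgeR's exact test and DESeq2 1.42.0 as alternatives. The 95% intervals are from the quasi-likelihood standard errors and are not adjusted. Ratios of paralogs used CPM with a pseudocount of 0.5. Exon lengths, positions and RE1 matches came from GENCODE M1 on NCBIM37 (mm9), and printed bases from that genome. Gene names were matched to RefSeq for 24191 identifiers. Copies of coding sequences of at least 300 bases at 90% identity were sought with BLAST+ 2.17.0. The quasi-likelihood test and the motif search were tested on simulated data. Depth was similar across libraries, 3 counts (0.0969 to 0.135 CPM) being taken as a floor for counting error.

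The genes described and all lists were chosen with earlier results of these data known. Named genes are the 10 regulators, *Rest*, and from the related and general lists every gene with an adjusted p under 0.05 and the 3 highest and 3 lowest log2 fold changes at 1 CPM or more, exceptions being stated, plus further paralogs in the family comparisons.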

Additional observations from a re-analysis of the deposited data

How the results depend on the processing

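Calls depended on the test, while the values of *Elavl3* did not. The 9 calls over all genes became 53 without a filter on low counts, 3 with at least 10 counts in every library, 233 and 343 with edgeR's exact test at tag-wise and common dispersion, 238 with DESeq2, and 60 to 113 with each library left out. Calls among the 10 regulators went from 0 to 1, *Elavl3*, without the filter, in both exact tests and in DESeq2. With a library left out, 1 genotype holds a single library and the spread comes from the other, so calls are not given. Without WT replicate 2 the log2 fold change of *Elavl3* was 1.76. The log2 fold change of *Elavl3* ranged from 1.58 to 1.76 and its adjusted p from 3.03e-08 to 0.151 over 13 alternatives. Calls among the related regulators went from 0 to 3 without the filter, in both exact tests and in DESeq2. RLE scaling and the library size alone moved no count of calls by over 1.5 times.

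Same-numbered libraries deviated together, but there are only 2 pairs and no link between them is stated. With the replicate number as a block, 2621 genes were called, with 4 of the 10 regulators (higher for *Elavl3*, *Srrm4* and *Celf4*, at adjusted p = 1.24e-05, 0.0222 and 0.0013, and lower for *Ptbp2*, at adjusted p = 0.0497), 13 related and 1 general factor (*Hnrnph2*). *Rest* was also called (adjusted p = 0.00166).

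The median log2 fold change of the 10 regulators lay between 0.074 and 0.23 with a library left out. For 5 of them, all with small differences, the sign was not stable with a library left out, with log2 fold changes of -0.24 to 0.64 for *Elavl2*, -0.076 to 0.33 for *Nova1*, -0.074 to 0.097 for *Nova2*, -0.091 to 0.076 for *Ptbp1* and -0.57 to 0.036 for *Ptbp2*. Outside the 10, the same held for *Msi1* (-0.98 to 0.22), *Fmr1* (-0.96 to 0.64), *Snrpe* (-0.057 to 0.50), *Hnrnph2* (-0.62 to 0.078), *Hnrnpa1* (-0.73 to 0.53) and *Sf3b3* (-0.34 to 0.049). *Ptbp1* was also 0.0079 with the library size alone. *Celf4* lay between 0.34 and 1.16, and was 0.34 without REST-/- replicate 1 and 0.41 without WT replicate 2. The difference in the log2 ratio lay between -0.63 and 0.084 for *Ptbp2* over *Ptbp1*, -0.37 and 0.16 for *Nova2* over *Nova1*, and 1.09 and 1.32 for the neuronal Elavl genes over *Elavl1*. With 1 RE1 mismatch allowed, regulators with a match within 20 kb went from 0 to 7. The cause of these shifts was not tested.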
